A study of Mus musculus with 4 samples.

Results

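The genes described here were the Toll-like receptors Tlr1 to Tlr9 and their adaptor Myd88, 10 genes taken by symbol from 24346 gene symbols measured in mouse dorsal skin. Toll-like receptors are membrane receptors of innate immunity, which bind microbial molecules or molecules released by damaged cells. Imiquimod (IMQ), the cream that induces psoriasis-like dermatitis in mice, is a synthetic ligand of Tlr7. RNA-seq was performed on skin from C57BL/6 male mice that were 8 weeks old when feeding began. All received a diet rich in fat, cholesterol and sucrose with added bile salt, called the NASH diet, for 3 weeks and then received IMQ for 1 day. The diet of the 7KC-IMQ group (n = 2 libraries) also contained 7-ketocholesterol (7KC), an oxidized cholesterol, and that of the Cont-IMQ group (n = 2 libraries) did not. The comparison therefore asked how the receptor genes differed with dietary 7KC in skin already exposed to a Tlr7 ligand. Every library came from IMQ-treated skin, so the response of these genes to IMQ itself could not be measured. The labels number the libraries but do not say whether each was a separate mouse, so the p-values measure only the spread between these libraries.

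Tlr1, Tlr2, Tlr4, Tlr5 and Tlr6 act at the cell surface on lipids, lipoproteins and flagellin, whereas Tlr3, Tlr7, Tlr8 and Tlr9 sit in endosomes and read nucleic acids. All of these receptors except Tlr3 can signal through the adaptor MyD88, which recruits IRAK kinases and leads to NF-kB activation. In skin, macrophages, dendritic cells, mast cells and neutrophils use them, and keratinocytes use several of the surface receptors and Tlr3. Plasmacytoid dendritic cells are a classical source of Tlr7 and Tlr9 and of the type I interferon that these receptors induce.

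Levels were given as FPKM, fragments scaled to transcript length and to the library's total, so levels can be compared between genes. From steps in the low values, the libraries were estimated to hold 15220000 to 16560000 reads each, and the read numbers given below for single genes are approximate and cover counting error only. The keratinocyte marker Krt5 was listed at 3062 and 2544 FPKM in Cont-IMQ and 2783 and 2730 FPKM in 7KC-IMQ, so the libraries carried the epidermal marker their label calls for. Cont-IMQ 2 stood apart in the hair follicle markers, whose summed level was 562 FPKM there and 42.7 to 156 FPKM in the other libraries. Differences are log2 fold changes of FPKM + 1, 7KC-IMQ against Cont-IMQ, from limma fitted to all 15896 genes of mean FPKM at least 0.1, with p-values adjusted by Benjamini-Hochberg and a threshold of 0.05. The scale understates the difference of genes at low FPKM.

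Tlr2 and Myd88 were the members with a higher level in both 7KC-IMQ libraries, and the sequences before their starts are shown to give the letters around these genes. A RefSeq promoter (GRCm38.p6, the build of these files) was matched for 8 of the 10 genes, and Tlr4 and Tlr7 were not matched. Bases that lie in a GENCODE exon were left out, so the Tlr2 window ends just before the first annotated base of the gene. Capitals mark matches to the 4 motifs searched, on both strands, which were the kappaB consensus, the interferon-stimulated response element core (GAAA, 2 bases of any kind, GAAA), the AP-1 site TGANTCA and the STAT site TTCNNNGAA.
Tlr2 (chr3:83841768-83841858, minus strand, upstream of the gene, 91 bases): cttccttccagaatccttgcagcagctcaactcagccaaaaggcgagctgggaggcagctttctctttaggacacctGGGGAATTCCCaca
Myd88 (chr9:119340042-119340268, minus strand, inside the GENCODE gene limits but outside its exons, 227 bases): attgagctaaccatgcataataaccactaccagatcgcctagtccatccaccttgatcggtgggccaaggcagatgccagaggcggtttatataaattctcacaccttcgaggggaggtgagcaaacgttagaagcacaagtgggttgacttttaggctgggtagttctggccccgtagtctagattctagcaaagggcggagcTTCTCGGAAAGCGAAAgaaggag

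The capitals before Tlr2 hold 2 overlapping matches to the kappaB consensus, at -173 to -164 and -172 to -163 from the RefSeq start. Those before Myd88 hold a STAT match at -46 to -38 that overlaps an interferon-stimulated response element match at -40 to -31. Of 32851 promoter windows in the table, 7.25% held the kappaB consensus, 2.98% the response element core, 6.75% the AP-1 site and 7.02% the STAT site. Among the other members, Tlr3 also held a kappaB match (-211 to -202), Tlr6 2 overlapping response element matches (-116 to -107 and -110 to -101), Tlr8 and 1 of the Tlr1 windows a STAT match, and Tlr9 an AP-1 match (-58 to -52). These matches are letters only, and no binding was measured.

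The receptor most abundant in mean level was Tlr4 (6.82 FPKM over the 4 libraries), followed by Tlr2 (6.14), Tlr1 (5.53), Tlr3 (3.35), Tlr8 (2.44), Tlr9 (1.8), Tlr5 (1.44), Tlr7 (1.35) and Tlr6 (0.593). The ranges of neighbours in this order overlapped, apart from a gap between Tlr1 and Tlr3 and a gap between Tlr7 and Tlr6. The receptor for IMQ was thus among the low Toll-like receptors of this skin, with about 46 to 104 reads a library behind its value. Myd88 stood far above all receptors at 49.8 to 70.4 FPKM. In the plot of levels by library, only Tlr2 and Myd88 have both 7KC-IMQ points above both Cont-IMQ points.

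**Figure D1:**
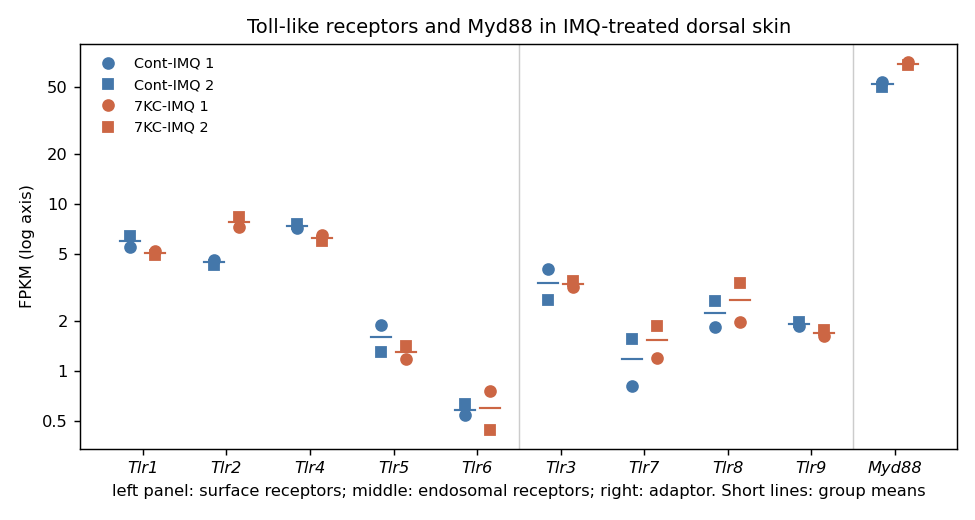
FPKM (log axis) of the 5 surface receptors, the 4 endosomal receptors and Myd88; circles and squares are the libraries and short lines the group means (n = 2 each). Tlr2 is at 4.33 to 4.62 FPKM in Cont-IMQ and 7.30 to 8.31 FPKM in 7KC-IMQ, whereas the points of Tlr7 interleave.

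Tlr7 (ENSMUSG00000044583.13, chrX:167304929-167330558, minus strand), the receptor for single-stranded RNA and IMQ, was 0.813 and 1.55 FPKM in Cont-IMQ and 1.19 and 1.85 FPKM in 7KC-IMQ. Cont-IMQ 1 was lowest, 7KC-IMQ 2 was highest, and the groups overlapped. The group means were 1.18 ± 0.52 FPKM and 1.52 ± 0.468 FPKM (SD, n = 2 each). Tlr7 did not pass the limma test (log2 fold change 0.22, SE 0.23, adjusted p = 0.723). The 95% interval ran from -0.39 to 0.82, so neither a fall nor a rise of moderate size could be set aside at this depth and with 2 libraries a group. Without Cont-IMQ 1, behind which stood about 46 reads, the log2 fold change was -0.03.

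Tlr8 (ENSMUSG00000040522.5, chrX:167242696-167264329, minus strand) is the close relative of Tlr7 and its neighbour on the X chromosome, 40599 bases away. Its level was 1.82 and 2.62 FPKM in Cont-IMQ and 1.97 and 3.36 FPKM in 7KC-IMQ. The 4 libraries came in the same order as for Tlr7, with Cont-IMQ 1 lowest and 7KC-IMQ 2 highest, and the groups overlapped (log2 fold change 0.17, SE 0.24, limma adjusted p = 0.795). Its 95% interval was -0.46 to 0.81, and the sign turned without Cont-IMQ 1 (-0.01) and without 7KC-IMQ 2 (-0.11). The ratio of Tlr7 to Tlr8 was 0.446 and 0.592 in Cont-IMQ and 0.603 and 0.55 in 7KC-IMQ, which also overlapped. This ratio and the other ratios given here were chosen after the values were seen.

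Over the 4 libraries, the genes whose centred log2(FPKM + 1) lay closest to that of Tlr7 were Tinagl1, H2-L and Smad7, with root mean square differences of 0.0189, 0.0244 and 0.0257. Among 13110 genes of mean FPKM at least 1, Tlr8 ranked 31 by this measure (0.0804). With 4 libraries, likeness of this kind is a description only.

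Tlr9 (ENSMUSG00000045322.10, chr9:106222598-106226883, plus strand), the receptor for CpG DNA, was 1.86 and 1.96 FPKM in Cont-IMQ and 1.61 and 1.75 FPKM in 7KC-IMQ. Both 7KC-IMQ libraries lay below both Cont-IMQ libraries, by less than the test could call (log2 fold change -0.12, SE 0.11, limma adjusted p = 0.669). Tlr3 (ENSMUSG00000031639.12, chr8:45395665-45411080, minus strand), the receptor for double-stranded RNA, was 4.10 and 2.65 FPKM in Cont-IMQ and 3.16 and 3.47 FPKM in 7KC-IMQ. The Cont-IMQ libraries of Tlr3 enclosed those of 7KC-IMQ, and the 95% interval of its log2 fold change was -0.50 to 0.50. The predicted gene Gm45542 shares 4.28% of the 75-base windows of Tlr3 exons, so some Tlr3 reads may belong to either gene. The share of reads from these windows was not measured. The endosomal receptors together summed to 8.6 and 8.78 FPKM in Cont-IMQ and 7.93 and 10.4 FPKM in 7KC-IMQ, again overlapping.

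Among the surface receptors, Tlr2 was higher in 7KC-IMQ. Tlr2 (ENSMUSG00000027995.10, chr3:83836272-83841767, minus strand), which recognizes lipoproteins as a pair with Tlr1 or Tlr6, was 4.62 and 4.33 FPKM in Cont-IMQ and 7.30 and 8.31 FPKM in 7KC-IMQ. The groups did not overlap, and about 199, 185, 338 and 354 reads stood behind these values. The means were 4.48 ± 0.211 FPKM and 7.8 ± 0.72 FPKM (SD, n = 2 each), a fold of 1.74. The log2 fold change was 0.68 (SE 0.11, 95% interval 0.39 to 0.98), with an unadjusted p of 0.00219 and an adjusted p of 0.352 in limma. Tlr2 therefore did not pass the threshold after adjustment over all genes, and its log2 fold change stayed between 0.60 and 0.77 when each library was left out in turn.

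The partners of Tlr2 did not share this pattern of levels. Tlr1 (ENSMUSG00000044827.10, chr5:64924679-64933563, minus strand) was 5.55 and 6.40 FPKM in Cont-IMQ and 5.25 and 4.93 FPKM in 7KC-IMQ. Both 7KC-IMQ libraries were below both Cont-IMQ libraries, with a log2 fold change of -0.19 (SE 0.11, limma adjusted p = 0.531). Tlr6 (ENSMUSG00000051498.6, chr5:64952031-64960097, minus strand) was low, at 0.542 and 0.629 FPKM in Cont-IMQ and 0.759 and 0.44 FPKM in 7KC-IMQ. The 7KC-IMQ libraries enclosed those of Cont-IMQ, and the 95% interval of the log2 fold change was -0.36 to 0.38. Tlr1 and Tlr6 lie 18467 bases apart, and 10.6% of the 75-base windows of Tlr1 exons also occur in Tlr6. Reads from these windows could be assigned to either gene, so both levels are uncertain. About 211 to 275 reads a library stood behind Tlr1 and 23 to 44 behind Tlr6. Shared reads could therefore make up a much larger part of the Tlr6 level than of the Tlr1 level.

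Within each library, the ratio of Tlr2 to Tlr1 was 0.833 and 0.676 in Cont-IMQ and 1.39 and 1.69 in 7KC-IMQ. Tlr1 was thus the more abundant gene of the pair in both Cont-IMQ libraries, and Tlr2 in both 7KC-IMQ libraries. Tlr2 over Tlr4 moved likewise, from 0.642 and 0.573 to 1.11 and 1.39. A ratio within a library does not depend on how the libraries were scaled to each other. The ratios were chosen after the values were seen, so they are given as a description with no test.

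**Figure D2:**
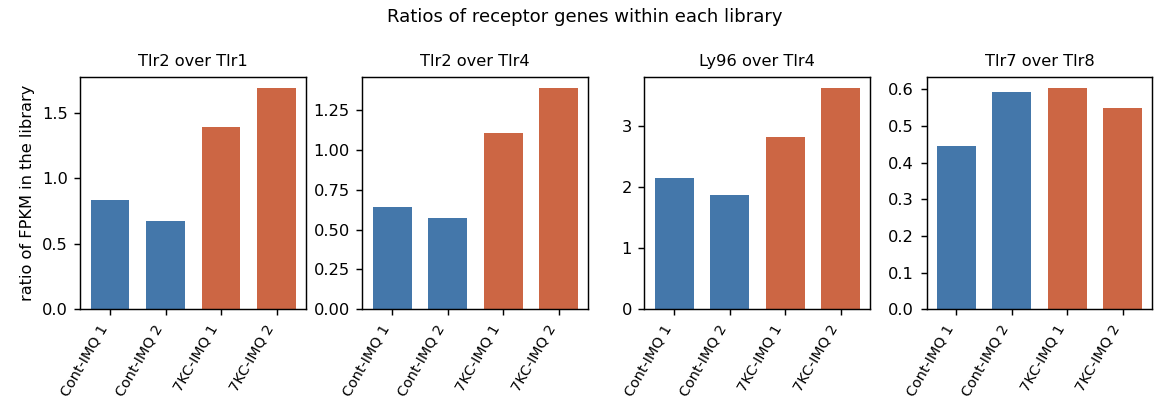
Ratios of FPKM within each library, for Tlr2 over Tlr1, Tlr2 over Tlr4, Ly96 over Tlr4 and Tlr7 over Tlr8; each bar is 1 library and each axis starts at 0. For the first 3 ratios the 7KC-IMQ bars all exceed the Cont-IMQ bars, and Tlr7 over Tlr8 overlaps at 0.446 to 0.603.

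Tlr4 (ENSMUSG00000039005.13, chr4:66827584-66930284, plus strand), the receptor for lipopolysaccharide, was 7.21 and 7.55 FPKM in Cont-IMQ and 6.55 and 5.99 FPKM in 7KC-IMQ. The 7KC-IMQ libraries were the lower pair without overlap, at a log2 fold change of -0.20 (SE 0.10, limma adjusted p = 0.467). Ly96 encodes MD-2, the subunit that holds lipopolysaccharide in the Tlr4 complex. Its level was 15.5 and 14.1 FPKM in Cont-IMQ and 18.5 and 21.7 FPKM in 7KC-IMQ, the opposite order to Tlr4 (log2 fold change 0.41, SE 0.11, limma adjusted p = 0.356). The ratio of Ly96 to Tlr4 was 2.15 and 1.87 in Cont-IMQ and 2.82 and 3.62 in 7KC-IMQ. Cd14, which passes lipopolysaccharide to this complex, was 7.73 and 6.27 FPKM in Cont-IMQ and 8.35 and 8.97 FPKM in 7KC-IMQ, higher without overlap at a limma adjusted p of 0.445.

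Tlr5 (ENSMUSG00000079164.8, chr1:182954788-182976044, plus strand), the receptor for flagellin, was 1.88 and 1.29 FPKM in Cont-IMQ and 1.17 and 1.41 FPKM in 7KC-IMQ. The groups overlapped, and the 95% interval of its log2 fold change was -0.58 to 0.25. The 5 surface receptors summed to 19.8 and 20.2 FPKM in Cont-IMQ and 21 and 21.1 FPKM in 7KC-IMQ, so their total moved little while the share of Tlr2 in it was larger in 7KC-IMQ.

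Myd88 (ENSMUSG00000032508.8, chr9:119335934-119341411, minus strand) was 53.9 and 49.8 FPKM in Cont-IMQ and 70.4 and 67.8 FPKM in 7KC-IMQ. The groups did not overlap, and the spread within each was small against the gap, with means of 51.9 ± 2.89 FPKM and 69.1 ± 1.85 FPKM (SD, n = 2 each), a fold of 1.33. Myd88 had the most reads of the members, about 1329 to 2036 a library. Its log2 fold change was 0.41 (SE 0.08, 95% interval 0.20 to 0.61), with an unadjusted p of 0.00415 and an adjusted p of 0.352 in limma. It remained at 0.35 to 0.46 when each library was left out in turn. The windows that Myd88 shares with the overlapping gene Acaa1a were 5.68% of its exon windows, so some of its reads may belong to either gene. What share of the reads this is was not measured.

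**Figure D3:**
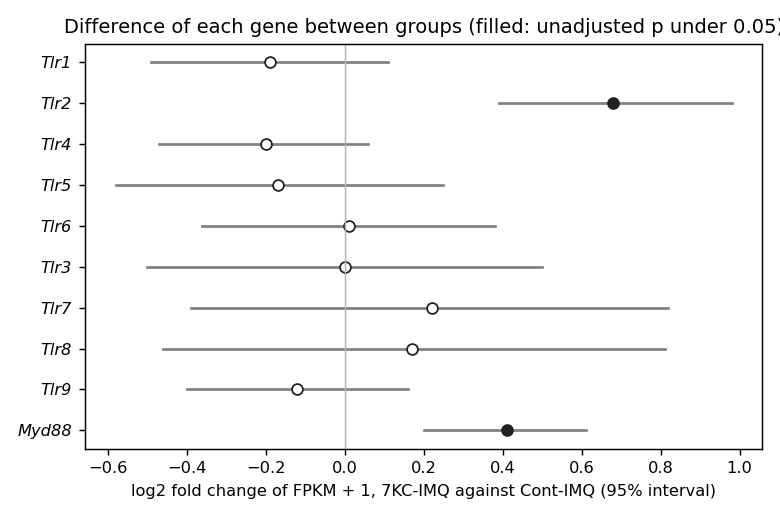
Log2 fold change of FPKM + 1 with its 95% interval from limma for each receptor gene and Myd88, 7KC-IMQ against Cont-IMQ; filled points have an unadjusted p under 0.05. The intervals of Tlr2 (0.39 to 0.98) and Myd88 (0.20 to 0.61) lie above 0, and those of the other 8 genes include 0.

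Counted over the 10 genes, limma called 0 after adjustment, against 0.00629% of all 15896 genes tested (1 gene, Mir24-2, named after its values were seen). At an unadjusted p under 0.05, 2 of 10 were higher (Tlr2 and Myd88), where 7.5% of all genes were, and 0 of 10 were lower, where 5.47% were (13% of all genes in either direction). The groups did not overlap for 2 higher members (background 23.9%) and for 3 lower members (Tlr1, Tlr4 and Tlr9, background 22.9%), which is 5 of 10 members in either direction where 46.8% of all genes did not overlap. The median log2 fold change was 0.00 over the members and -0.01 over all genes. All 10 members passed the filter on low values. A different scaling of the libraries kept Tlr2 and Myd88 without overlap, but the lower genes were 2 with quantile normalization (Tlr1 and Tlr4) and 4 with libraries set to the same sum (Tlr1, Tlr4, Tlr5 and Tlr9).

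The other mouse receptors of the family were Tlr11, Tlr12 and Tlr13. Tlr13, an endosomal receptor for bacterial ribosomal RNA, was 3.09 and 3.85 FPKM in Cont-IMQ and 2.19 and 3.21 FPKM in 7KC-IMQ, above Tlr7, Tlr8 and Tlr9 in mean level, and the groups overlapped. Tlr11 was 0.218 to 0.453 FPKM. Tlr12 was at most 0.0655 FPKM with about 1 to 3 reads a library, which is not above a floor of 3 reads. Both are profilin receptors. Tlr11 overlapped between the groups (log2 fold change -0.04, 95% interval -0.39 to 0.30, limma adjusted p = 0.92), and Tlr12 was below the filter and not tested.

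Whole skin is a mixture, in which fewer cells of a type and less RNA per cell cannot be told apart. Macrophage markers summed to 1027 and 1237 FPKM in Cont-IMQ and 980 and 1041 FPKM in 7KC-IMQ, overlapping, with 0 of 12 higher and 3 lower without overlap, a share near the 22.9% of all genes that were lower. Their defining gene Adgre1 was 49 and 64.3 FPKM in Cont-IMQ and 46.7 and 50.5 FPKM in 7KC-IMQ. Relative to Adgre1, Tlr2 was 0.0944 and 0.0673 in Cont-IMQ and 0.156 and 0.165 in 7KC-IMQ, and Myd88 was 1.1 and 0.775 in Cont-IMQ and 1.51 and 1.34 in 7KC-IMQ. Tlr1 and Tlr4 relative to Adgre1 overlapped between groups, at 0.0976 to 0.113 and 0.117 to 0.147. Tlr7 relative to Adgre1 was 0.0166 and 0.0241 in Cont-IMQ and 0.0254 and 0.0366 in 7KC-IMQ, apart by a narrow gap. Over each of the 12 macrophage markers in turn, the ratio was higher in 7KC-IMQ without overlap for 11 with Tlr2 and 11 with Myd88. With Tlr7 it was so for 3, and the other 9 ratios overlapped. Tlr2 and Myd88 did not overlap by themselves, and each set of 12 ratios reuses the same member. The ratios are thus not 12 separate observations, and the part of macrophages in these differences was not tested.

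Neutrophils also use Tlr2, and their markers moved with it in part. Of 8 tested markers, 5 were higher without overlap (23.9% of all genes) and 1 was lower (22.9%). The summed level was 121 and 149 FPKM in Cont-IMQ and 130 and 110 FPKM in 7KC-IMQ, most of it from Il1r2, the lower gene, at 102 and 127 FPKM and then 100 and 76.6 FPKM. Without Il1r2, the sum was 18.5 and 22.1 FPKM in Cont-IMQ and 30.2 and 33.5 FPKM in 7KC-IMQ, most of it from Cxcr2. Il1r2 was left out after the values were seen. Dropping the lower gene favours a higher sum in 7KC-IMQ, so this sum is a description only. Stfa2l1, a stefin gene, was listed at 0 in both Cont-IMQ libraries and at 1.51 and 1.97 FPKM in 7KC-IMQ, past an unadjusted p of 0.05 in limma with an adjusted p of 0.265. Mmp8, a neutrophil collagenase, was 0.346 and 0.816 FPKM in Cont-IMQ and 1.08 and 1.49 FPKM in 7KC-IMQ (limma adjusted p = 0.374), and Retnlg was higher without overlap as well. The granule genes Mpo, Elane and Ngp were listed at 0 in at least 1 library, and Mpo was below the filter and not tested. Cxcr2, a neutrophil chemokine receptor, was 13.4 and 15 FPKM in Cont-IMQ and 20.2 and 23 FPKM in 7KC-IMQ (log2 fold change 0.57, limma adjusted p = 0.352), and the ratio of Tlr2 to Cxcr2 was 0.345 and 0.288 in Cont-IMQ and 0.362 and 0.361 in 7KC-IMQ. Csf3r, the receptor for granulocyte colony-stimulating factor, was 3.8 and 3.64 FPKM in Cont-IMQ and 3.93 and 4.5 FPKM in 7KC-IMQ. The part of neutrophils in the Tlr2 difference was not tested. Myd88 relative to Krt5 was 0.0176 and 0.0196 in Cont-IMQ and 0.0253 and 0.0249 in 7KC-IMQ.

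For Tlr7 and Tlr9, the plasmacytoid dendritic cell markers were read as well. Siglech, the defining gene of these cells, was 0 to 0.179 FPKM in the 4 libraries, and Klk1 was at 0 in 3 of them. Of the 8 markers, 5 were tested, with 2 higher without overlap (23.9% of all genes) and 2 lower (22.9%). All 8 markers summed to 1933 and 1708 FPKM in Cont-IMQ and 1884 and 2166 FPKM in 7KC-IMQ. Nearly all of this sum came from Ly6d and Bst2, which other skin cells also express. The markers of conventional dendritic and Langerhans cells summed to 576 and 422 FPKM in Cont-IMQ and 561 and 436 FPKM in 7KC-IMQ, and the B cell markers to at most 1.79 FPKM.

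The molecules that act upstream of the surface receptors included the largest log2 fold changes among the tested pathway genes. Of 7 endogenous ligands, 4 were higher at an unadjusted p under 0.05 (7.5% of all genes) and 0 lower (5.47%), with a median log2 fold change of 0.52 (all genes -0.01). The list was chosen with earlier results of these data known, so this count is not independent evidence of their direction. S100a8 and S100a9, the subunits of calprotectin and ligands of Tlr4, were 1267 and 1037 FPKM and 1293 and 1063 FPKM in Cont-IMQ, and 3608 and 6775 FPKM and 3586 and 7010 FPKM in 7KC-IMQ. Their log2 fold changes were 2.11 and 2.10, each at a limma adjusted p of 0.352. Tnc, which encodes the matrix protein tenascin-C, a ligand of Tlr4, was 5.71 and 4.27 FPKM in Cont-IMQ and 15.8 and 19.1 FPKM in 7KC-IMQ (log2 fold change 1.63, SE 0.17, limma adjusted p = 0.303). Camp, the cathelicidin gene, was 1 of the 4 but low, at 0.336 and 0 FPKM in Cont-IMQ and 0.628 and 0.682 FPKM in 7KC-IMQ. Hmgb1 was about level, at 181 to 190 FPKM.

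Of 7 genes of co-receptors and ligand delivery, 1 was higher (Ly96, against 7.5% of all genes) and 3 were lower (against 5.47%) at an unadjusted p under 0.05, with a median log2 fold change of -0.20. Lbp, the lipopolysaccharide-binding protein, was 50.4 and 45.7 FPKM in Cont-IMQ and 35.5 and 40.9 FPKM in 7KC-IMQ. Cd180, a receptor homologue of B cells and macrophages that restrains Tlr4, was 5.54 and 4.36 FPKM and then 3.2 and 3.57 FPKM, and Tril, a Tlr4 accessory protein, 1.78 and 2.09 FPKM and then 1.4 and 1.02 FPKM. The delivery genes of Tlr4 were thus split, with Ly96 and Cd14 higher and Lbp and Tril lower without overlap. Cd36, a scavenger receptor that helps Tlr2 pair with Tlr6, was 73 to 102 FPKM and overlapped.

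The genes that the endosomal receptors need for transport and processing differed little between the groups. Of 12 such genes, 0 were higher (7.5% of all genes) and 1 was lower (5.47%) at an unadjusted p under 0.05, with a median log2 fold change of -0.02. Unc93b1, the chaperone that carries Tlr3, Tlr7 and Tlr9 to endosomes, was 33.1 and 39.7 FPKM in Cont-IMQ and 32.5 and 33.9 FPKM in 7KC-IMQ, overlapping. Ctss, a protease that can process endosomal receptors, was lower, at 162 and 168 FPKM in Cont-IMQ and 141 FPKM in both 7KC-IMQ libraries (log2 fold change -0.22, limma adjusted p = 0.365). The proteases Ctsk and Ctsl had the highest levels of the list, at 408 to 537 FPKM and 342 to 385 FPKM, and neither was past an unadjusted p of 0.05.

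The other adaptors and the proximal kinases, not all of which act through Myd88, lay close together. Their log2 fold changes ran from -0.17 to 0.35, with a median of -0.01 over 19 tested genes of 20. At an unadjusted p under 0.05, 1 was higher (7.5% of all genes) and 0 were lower (5.47%). The higher gene was Ticam1, which encodes TRIF, the adaptor of Tlr3 and Tlr4. Ticam1 was 8.72 and 7.91 FPKM in Cont-IMQ and 10.4 and 11.4 FPKM in 7KC-IMQ (log2 fold change 0.35, limma adjusted p = 0.356). Irak1, a kinase that Myd88 recruits, was 24.6 to 25.6 FPKM in all 4 libraries. Tab2, a scaffold of the next kinase complex, was 35.8 to 41.4 FPKM. Irf7, the transcription factor through which Tlr7 and Tlr9 induce type I interferon, was 186 and 179 FPKM in Cont-IMQ and 154 and 140 FPKM in 7KC-IMQ, lower without overlap (log2 fold change -0.31, SE 0.08, limma adjusted p = 0.356). Irf3, which serves Tlr3 and Tlr4, was 27.1 and 31.6 FPKM in Cont-IMQ and 32.3 and 32.8 FPKM in 7KC-IMQ, higher without overlap (limma adjusted p = 0.572). Of the 5 interferon regulatory factors, 2 were higher (23.9% of all genes) and 2 lower (22.9%) without overlap. At an unadjusted p under 0.05, 0 were higher (7.5% of all genes) and 1, Irf7, was lower (5.47%).

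Of 14 NF-kB target genes, all 14 were higher in mean level and 8 were higher at an unadjusted p under 0.05, with a median log2 fold change of 0.67. Over all genes, 7739 of 15896 were higher in mean level and 7.5% were higher at that p. Several of them were chosen by the study on these same samples, so this count is not independent evidence of their direction. The 8 genes were Tnf, Il1b, Il6, Il12b, Il23a, Cxcl1, Cxcl2 and Icam1. Il23a, a subunit of the cytokine IL-23, was 2.15 and 1.82 FPKM in Cont-IMQ and 7.92 and 8.13 FPKM in 7KC-IMQ (log2 fold change 1.60, SE 0.11, limma adjusted p = 0.265). Il12b, the other subunit and a classical product of Toll-like receptor stimulation, was 1.41 and 0.855 FPKM in Cont-IMQ and 2.87 and 2.4 FPKM in 7KC-IMQ. Nfkbia and Nfkbiz, the most abundant genes of the list, overlapped at 225 to 303 FPKM and 63.5 to 81.8 FPKM.

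Of 13 tested interferon target genes, 1 was higher (7.5% of all genes) and 0 lower (5.47%) at an unadjusted p under 0.05, with a median log2 fold change of 0.23. Cxcl9, a chemokine induced by interferon gamma, was 10.7 and 11.3 FPKM in Cont-IMQ and 16 and 18.7 FPKM in 7KC-IMQ (log2 fold change 0.61, SE 0.11, limma adjusted p = 0.352). Isg15, a ubiquitin-like protein induced by interferon, spread over 102 to 236 FPKM and overlapped. Ifnb1 was listed at 0 in all 4 libraries.

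Among 12 negative regulators of these receptors, 2 were higher (7.5% of all genes) and 2 lower (5.47%) at an unadjusted p under 0.05, with a median log2 fold change of 0.03. Socs1 was 9.71 and 5.94 FPKM in Cont-IMQ and 13.8 and 14 FPKM in 7KC-IMQ. Zc3h12a, which encodes an RNase that degrades cytokine mRNAs, was 93.6 and 82.4 FPKM in Cont-IMQ and 126 and 160 FPKM in 7KC-IMQ. Dusp1, a phosphatase of MAP kinases, was lower, at 273 and 279 FPKM in Cont-IMQ and 124 and 218 FPKM in 7KC-IMQ, as was Rnf216, a ubiquitin ligase (log2 fold change -0.25). Over all 91 tested pathway genes outside the members, 17 were higher (7.5% of all genes) and 7 lower (5.47%, a share near that of the list) at an unadjusted p under 0.05. After adjustment, limma called 0 of them, and their median log2 fold change was 0.06. The lists were chosen with earlier results of these data known, so the counts at an unadjusted p are a description only. Without Cont-IMQ 1, these counts were 26 and 2, and without either 7KC-IMQ library the lower genes were 3 and 2.

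**Figure D4:**
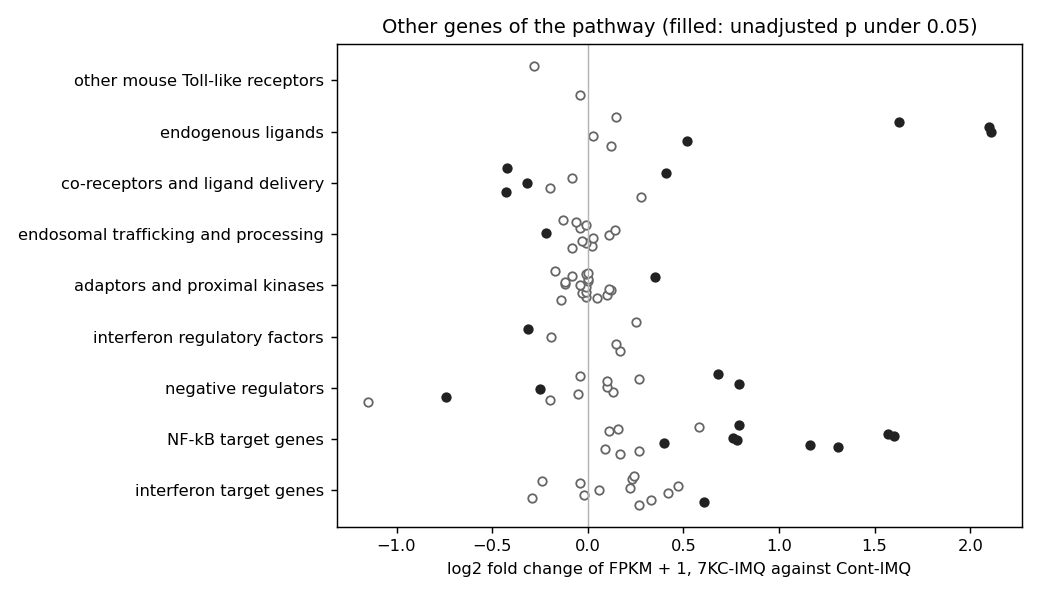
Log2 fold change of FPKM + 1, 7KC-IMQ against Cont-IMQ, for the tested genes of each pathway list (1 point a gene, spread vertically only for legibility); filled points have an unadjusted p under 0.05 in limma. Adaptors and kinases lie between -0.17 and 0.35, and S100a8 and S100a9 are the points beyond 2.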

How the data were processed

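RNA-seq libraries were made from total RNA of dorsal skin with a stranded mRNA kit and sequenced in 75-base reads. The authors aligned the reads to mm10 with TopHat and Bowtie2 and deposited FPKM values per gene symbol, 1 file a library, computed with the Cufflinks tools. Per the labels, the submitters' processing notes name TopHat2 2.1.1, Bowtie2 2.2.8, SAMtools 0.1.18 and Cuffdiff 2.2.1. Whether counting used strand is not given in the sources used here. Counts were not used here, so a count model was not fitted.

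The deposited FPKM values were transformed as log2(FPKM + 1), genes of mean FPKM under 0.1 were removed, and groups were compared with limma 3.58.1 (R 4.3.3) with a variance trend and Benjamini-Hochberg adjustment over all genes tested at 0.05. The procedure was run on simulated data whose spread came from the same fit, with 200 of 15896 genes changed by 1 on the log2 scale. It recovered 182 of these and made 15 false calls. Smaller changes, such as those of the members, were not simulated, so the run does not show how well they could be seen. Reads behind a value were estimated from the steps of low FPKM values and the longest coding transcript of GENCODE M21. In each library 70.3 to 72.7% of low values lay within 0.1 of a whole read number, where 20% would by chance. Alternatives were a pseudocount of 0.1, a filter at mean FPKM 1 or none, 3 scalings of the libraries, no variance trend, a replicate block and leaving out each library.

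The members and lists were chosen with earlier results of these data known. Besides the members, genes were named from fixed lists where the unadjusted p was under 0.05 or the mean FPKM was among the 2 highest, together with Tlr11, Tlr12, Tlr13, Unc93b1, Cd14, Ly96, Adgre1, Siglech, Csf3r and Krt5, and the 3 genes most like Tlr7. Hmgb1, Ifnb1, Klk1, Mpo, Elane, Ngp, Retnlg, Cd3d and Cd8a and all ratios were chosen after their values were seen. 4 list symbols (Ly6g, Trac, Trdc and Hbb-bt) were not analysed here, and 1 gene that the rule names is not reported here.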

Additional observations from a re-analysis of the deposited data

How the results depend on the processing

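Tlr2 and Myd88 kept their direction under all 12 alternatives, at 0.60 to 0.79 and 0.33 to 0.46 on the log2 scale. For genes without overlap, only the scalings of the libraries could have turned the direction. Leaving out a library or changing the pseudocount could not, and the filter, variance trend and block leave the log2 fold change as it is. With all 4 libraries, limma adjusted p was 0.293 to 0.426 for Tlr2 and 0.31 to 0.426 for Myd88. Over the 10 members, 108 of 119 alternatives kept the direction and side of the threshold and 11 turned the direction, in Tlr3, Tlr6, Tlr7 and Tlr8, whose differences all lay within their intervals. Tlr3 was 0.01 with a pseudocount of 0.1, 0.06 with quantile normalization and -0.24 to 0.24 without each library. Tlr6 was -0.01 with a pseudocount of 0.1, -0.02 with libraries set to the same sum and -0.14 to 0.15 without each library, and was removed by the filter at mean FPKM 1. Tlr7 ranged from -0.03 to 0.46 and Tlr8 from -0.11 to 0.45 without each library. The members' counts of 2 higher, 0 lower and 0 called after adjustment held in every alternative run. Over all genes, the adjusted calls went from 1 to 2 with a pseudocount of 0.1 and ranged from 1 to 9 without each library (9 without Cont-IMQ 1, 5 without Cont-IMQ 2). The 1192 higher genes became 638 with libraries set to the same sum, which moved the median of all genes to -0.07 and the 869 lower genes to 1229, so that lower genes outnumbered higher ones, and ranged from 333 to 1190 without each library (678 without 7KC-IMQ 1, 333 without 7KC-IMQ 2). The 869 lower genes ranged from 282 to 1141 (459 without 7KC-IMQ 1, 282 without 7KC-IMQ 2), the 17 higher pathway genes from 12 to 26 and the 7 lower ones from 2 to 7 without each library. The cause was not tested. Same-numbered libraries share only a number (correlation of their deviations 0.0776 over 13110 genes), and with the replicate block the lower pathway genes were 3, Tlr2 stayed at 0.68 and no member's call differed. With 2 libraries a group, and at most 44 reads behind Tlr6 and 104 behind Tlr7, the stated intervals limit what could be seen of these genes.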

Other observations

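Other cell type markers moved in these libraries, and are given as values. Mast cell markers summed to 106 and 103 FPKM in Cont-IMQ and 86.3 and 90.5 FPKM in 7KC-IMQ, without overlap, with the proteases Cma1 (26.3 and 28.5 against 20.2 and 22.4 FPKM) and Tpsb2 (19.5 and 20.8 against 14.5 and 16.1 FPKM) past an unadjusted p of 0.05 in limma. T cell markers summed to 16.1 and 14.5 FPKM in Cont-IMQ and 12.3 and 9.85 FPKM in 7KC-IMQ, a sum mostly of Cd3g. Of its 5 genes, Cd3e and Cd3g were lower without overlap and Cd3d and the barely detected Cd8a higher without overlap. Skeletal muscle markers summed to 6229 and 6203 FPKM against 4993 and 5979 FPKM, with Myh1 lower (695 and 753 against 322 and 568 FPKM) and Myh4 higher (125 and 62.9 against 427 and 329 FPKM). Keratinocyte (15761 to 23690 FPKM), fibroblast (2361 to 3256 FPKM) and red blood cell markers (6.74 to 27 FPKM) overlapped between the groups. None of the named genes passed 0.05 after adjustment, with limma adjusted p of 0.352 to 0.381 for Myh4 and Myh1.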
